A study of Mus musculus with 11 samples.

Results

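CTCF, its paralogue CTCFL and the cohesin complex are described here through the transcripts of 10 genes, out of 55228 gene symbols in the deposited tables. The 10 genes were listed by name and not by a cut on measured values, though with earlier results of these data known. They are Ctcf, Ctcfl, Rad21, Smc1a, Smc3, Stag1, Stag2, Nipbl, Wapl and Pds5b. All 10 passed the filter on low counts and were among the 16420 genes tested. RNA was sequenced from 11 libraries of EN52.9.1 mouse embryonic stem cells, a line in which CTCF carries an auxin-inducible degron (CTCF-AID), so that auxin sends the protein for degradation. All groups came from this degron line. The EV untreated group (3 libraries) received no auxin, and its genotype label calls it wild-type. The EV auxin group (2 libraries) received auxin as indole-3-acetic acid at 500 µM, meant to remove CTCF, and these data hold no measure of the protein. The FL auxin group (3 libraries) and the H373R auxin group (3 libraries) had the same treatment with full-length CTCF or mutant CTCF reintroduced. Library titles of the last group read ZF4. The labels do not say how long auxin was present, which promoter drove the reintroduced CTCF, or whether replicates were separate cultures, so p-values measure only the spread between these samples, which may be technical.

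CTCF is a zinc finger protein that binds DNA at insulators and at the anchors of chromatin loops. Cohesin is a ring built from SMC1A, SMC3 and RAD21 with either STAG1 or STAG2; NIPBL loads it onto chromatin and drives loop extrusion, and WAPL with PDS5 proteins releases it. Extruding cohesin halts at CTCF, and in embryonic stem cells this sets the borders of topologically associating domains. CTCFL (BORIS) shares the zinc fingers of CTCF and is best known from male germ cells.

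Total counts ran from 13465241 to 29902246 per library, and Ctcfl was the least precise of the 10 genes, with 20 to 105 counts per library. EV untreated replicate 1 stood apart from its group. In it 9 of the 10 genes lay below the mean of replicates 2 and 3, at 77.9% to 93.3% of that mean, and Ctcfl lay above it at 124%. Across 16242 tested genes with known GC content, the deviation of that library from its group mean correlated with GC content (r = 0.58 across genes, which are not independent replicates). FL auxin replicate 1 deviated in the same direction (r = 0.33), and it was the lowest FL library for each of the 10 genes except Ctcfl. Stem cell markers were present throughout: all 10 of the list (Pou5f1, Nanog, Sox2 and others) had counts in every library. They summed to 6153 to 6486 CPM (counts scaled to library size). Marker sums were scaled to total counts alone, and all other CPM were scaled with TMM factors as well. The summed level of 6 primitive endoderm markers was 27.9 to 31.8 CPM in the EV groups, 99.4 to 108 CPM in FL auxin and 62.1 to 68.9 CPM in H373R auxin, and all 6 had counts in every library. The summed level of 6 fibroblast markers was 56.1 to 66.9 CPM in the EV groups and 73.0 to 91.5 CPM in the other groups, with Lum at 0 in every EV library and Postn at 0 in every FL and H373R library. The part of these markers in the results was not tested. In bulk RNA, fewer cells of a type and less RNA per cell cannot be told apart.

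**Figure D1:**
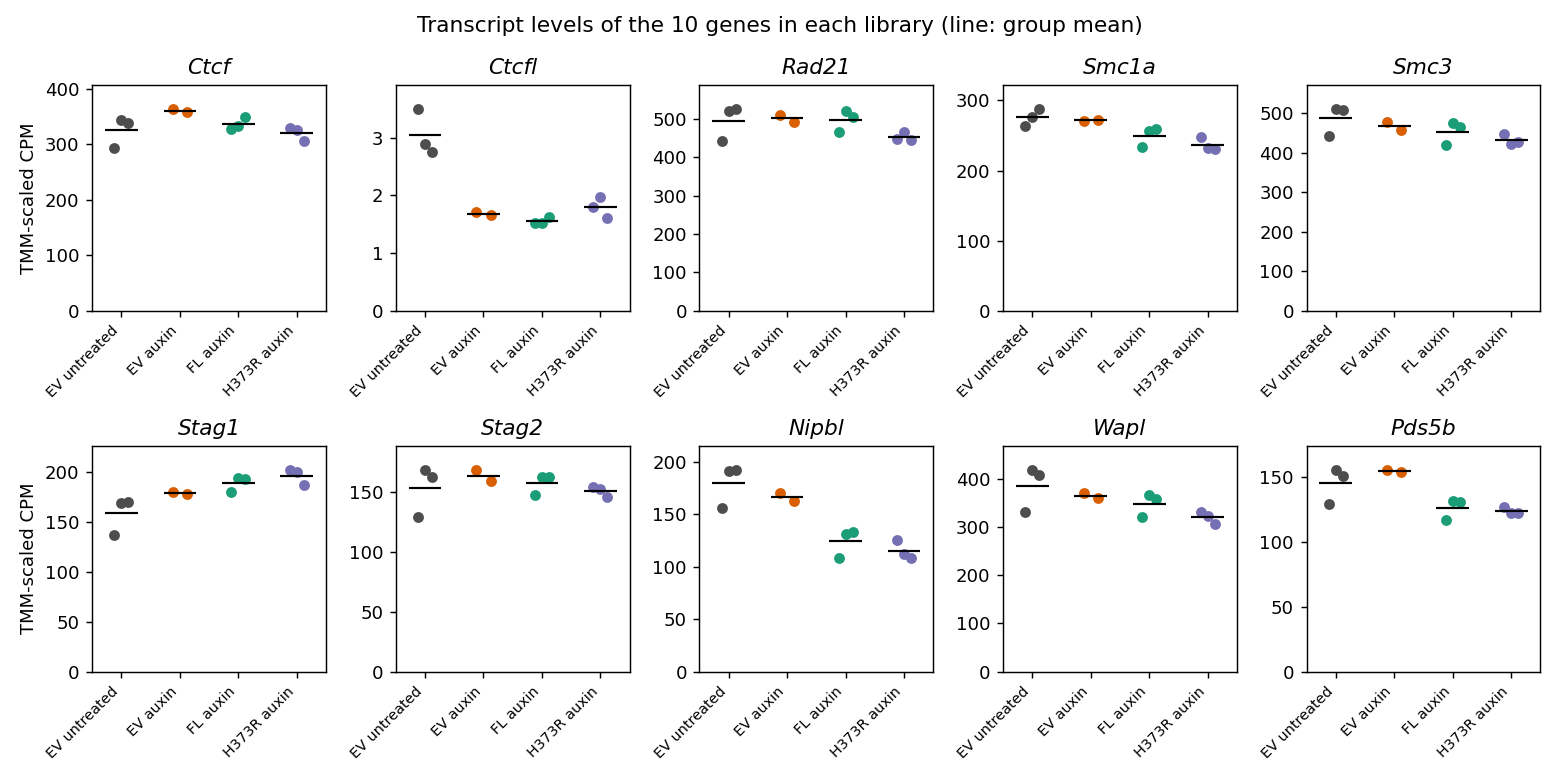
TMM-scaled CPM (y axis, own scale per panel) of each of the 10 genes in every library, by group (x axis); points are libraries and lines are group means. Ctcfl is highest in the 3 EV untreated libraries, and all 6 libraries with reintroduced CTCF lie below all 5 EV libraries for Nipbl and Smc1a. How many of all genes separate in these ways was not counted.

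Levels between genes can be compared on the length-scaled measure TPM. Rad21, Smc3, Ctcf, Wapl and Smc1a followed in this order in all 4 groups, from a mean of 440.1 ± 43.4 TPM (SD, n = 3) for Rad21 to 180 ± 9.25 TPM for Smc1a in EV untreated cells. The ranges of Ctcf and Wapl, and of Wapl and Smc1a, overlapped in EV untreated cells and not in the other groups. A lower tier held Nipbl, Stag2, Pds5b and Stag1, between 50.5 ± 6.0 TPM for Stag1 and 71.7 ± 8.33 TPM for Nipbl in EV untreated cells. Within this tier the order changed: Nipbl had the highest mean in EV untreated cells, where its range overlapped that of Stag2, and the lowest mean in H373R cells, at 45.6 ± 3.56 TPM, where its range overlapped that of Pds5b. Stag1 had the lowest mean in EV untreated cells and stood above both Nipbl and Pds5b in every FL and H373R library. Ctcfl was far below the others, at 1.70 to 4.07 TPM.

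**Figure D2:**
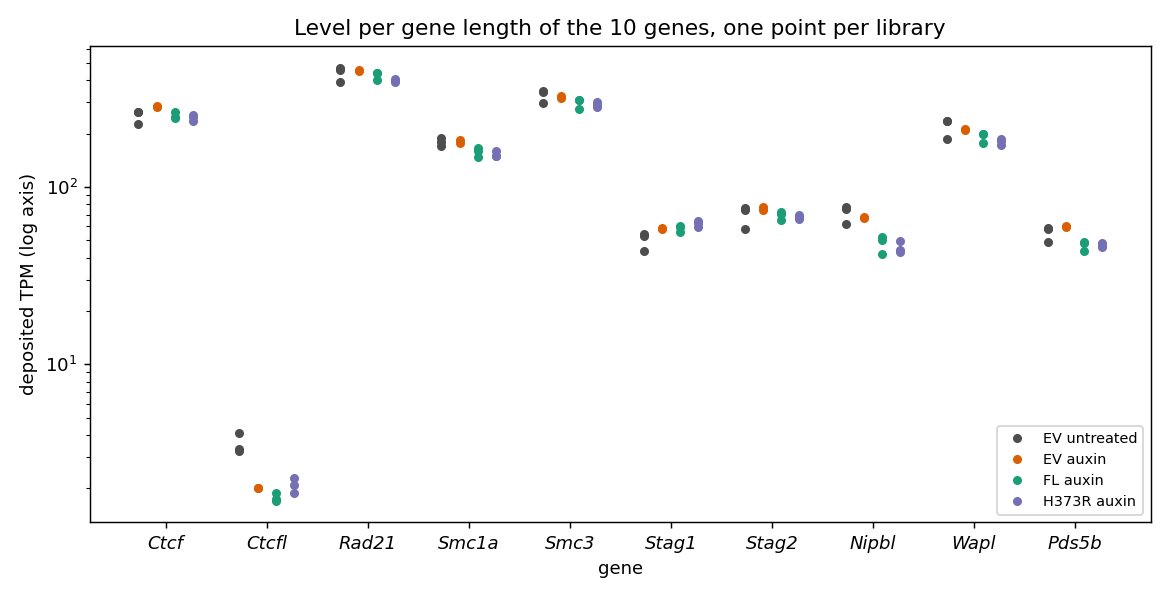
Deposited TPM (y axis, log scale) of the 10 genes in each library, coloured by group. Rad21 is highest and Ctcfl lowest in every group, and Stag1 passes Nipbl and Pds5b in the FL and H373R groups.

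Ctcf lies at chr8:105636568-105682922 (GRCm38, plus strand). The study concerns CTCF and G-quadruplexes, 4-stranded structures of guanine-rich DNA, so the window of 250 bases before its RefSeq start is shown (GRCm38.p6, chr8:105636288-105636537, plus strand, no annotated exon). Capitals mark a stretch whose opposite strand matches a search for 4 runs of at least 3 G with 1 to 7 bases between runs. A base between runs may itself be G, and the match here needs the longest run to be split.
Ctcf: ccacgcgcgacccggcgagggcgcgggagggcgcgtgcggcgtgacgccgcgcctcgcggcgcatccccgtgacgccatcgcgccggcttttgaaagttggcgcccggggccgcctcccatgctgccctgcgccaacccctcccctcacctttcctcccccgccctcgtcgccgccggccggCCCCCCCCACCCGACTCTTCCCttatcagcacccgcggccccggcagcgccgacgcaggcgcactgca
Such a pattern, searched on both strands, was found in 16.7% of 32851 windows of this length before RefSeq starts. Windows were at hand for 6 of the 10 genes, and those of Smc1a, Smc3, Stag1, Wapl and Pds5b held no match. The Ctcf window had a GC content of 77.6%, beside a median of 52.4% over all windows. A match of letters is a description and shows neither a structure nor binding.

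The Ctcf transcript stood at 294, 344 and 339 CPM in EV untreated libraries and at 364 and 359 CPM in EV auxin libraries. It stood at 328, 333 and 349.6 CPM with full-length CTCF and at 330.4, 326 and 306 CPM with H373R. The EV auxin libraries were the highest of all 11, and the other groups overlapped each other. The log2 fold change of EV auxin over EV untreated was 0.15 ± 0.06 (SE; adjusted p = 0.113, edgeR quasi-likelihood test), and H373R against EV auxin gave -0.17 ± 0.06 (adjusted p = 0.0683). Without EV untreated replicate 1 the first value was 0.07, and H373R against EV auxin was then called (-0.17, adjusted p = 0.00605), as it was with only the compared libraries fitted (adjusted p = 0.00248). For H373R against FL the log2 fold change was -0.07, with a 95% interval from -0.19 to 0.05. Auxin acts on the protein, so the transcript does not check the labels, and whether reads of the reintroduced CTCF were counted under Ctcf was not tested. The 5 genes whose log2 CPM followed Ctcf most closely over the 11 libraries were Ssrp1 (r = 0.92), Gm5823 (r = 0.91), Trim33 (r = 0.91), Casd1 (r = 0.91) and Ints6 (r = 0.90), in libraries that share depth and base composition.

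Ctcfl, at chr2:173093609-173119525 (minus strand), was the 1 gene of the 10 to pass in EV auxin against EV untreated, where 20.7% of all tested genes were called and 9.40% were called lower. It fell to 1.69 ± 0.04 CPM (SD, n = 2) from 3.05 ± 0.39 CPM (SD, n = 3). The libraries held 105, 59 and 75 counts in EV untreated, 30 and 40 in EV auxin, 32, 20 and 32 in FL auxin and 42 in each of the 3 H373R libraries. On the CPM scale these were 3.5, 2.89 and 2.75 in EV untreated, 1.71 and 1.66 in EV auxin, 1.53, 1.52 and 1.63 in FL auxin and 1.81, 1.98 and 1.62 in H373R auxin. All 8 auxin libraries lay below all 3 untreated ones, and how many of all genes separate in this way was not counted. Ctcf, Ctcfl and Stag1 were the 3 of the 10 genes whose EV auxin and EV untreated libraries did not overlap, where 44.9% of all genes did not.

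The log2 fold change of Ctcfl in EV auxin over EV untreated was -0.86 ± 0.17 (SE; adjusted p = 0.00206, edgeR). Neither form of reintroduced CTCF was followed by a call against EV auxin: full-length CTCF gave -0.11 (95% interval -0.54 to 0.33) and H373R 0.09 (-0.31 to 0.49). Against EV untreated, Ctcfl fell in FL cells (-0.97, adjusted p = 2.43e-04) and in H373R cells (-0.77, adjusted p = 4.87e-04). These 3 comparisons share the untreated libraries. The fall was called under all 22 alternatives, from -0.97 to -0.60 after auxin in EV cells.

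The ratio of Ctcf to Ctcfl in TPM was 55.7 to 81.4 in EV untreated libraries, 141 to 143 in EV auxin, 142 to 145 in FL auxin and 109 to 125 in H373R auxin. Ctcfl is best known from germ cells, and 5 germ cell markers had counts in every library, summing to 245 to 271 CPM in EV untreated and 294 to 377 CPM in the auxin groups. Against EV untreated, 2 of the 5 were called higher and 0 lower in EV auxin, where 11.3% of all genes were called higher. In FL 3 were higher and 1 lower (17.7% of all genes higher), and in H373R 3 were higher and 0 lower (22.3% of all genes higher). They did not move as a block. Mael rose in each auxin group against EV untreated (0.67 to 1.16 on the log2 scale). Stra8 rose in EV auxin (0.49) and fell in FL against EV untreated (-0.33), and Dazl was called in none of these 3 comparisons by edgeR (adjusted p = 0.249 to 0.986). The part of germ cell transcripts in the Ctcfl difference was not tested. An antisense gene, Ctcflos, overlaps 171 exon bases of Ctcfl and held 0 to 11 counts; whether the counting used strand is not given in the sources used here. Over the 11 libraries the genes most like Ctcfl were Dglucy (r = 0.98), Bcas3 (r = 0.97), Commd1 (r = 0.97), Gli2 (r = 0.96) and Psrc1 (r = 0.96).

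The ring subunits moved little. Rad21 (chr15:51962240-51991747, minus strand), whose product closes the ring, was at 441, 520.1 and 525 CPM in EV untreated, 510.2 and 491 in EV auxin, 465, 519 and 504 in FL auxin and 448, 465 and 444 in H373R auxin. All 3 H373R libraries lay below all EV auxin and FL libraries, and EV untreated replicate 1 lay below them. None of the 6 comparisons of Rad21 passed, the nearest to 0.05 being H373R against EV untreated at -0.13 ± 0.06 (adjusted p = 0.101, edgeR). H373R against FL gave -0.13 (95% interval -0.27 to 0.00, adjusted p = 0.244). Without EV untreated replicate 1, H373R was called lower than EV untreated (-0.22, adjusted p = 3.59e-04), EV auxin (-0.14, adjusted p = 0.0223) and FL (-0.14, adjusted p = 0.0262). The call against FL was also made with the trends of each library with GC content and gene length removed (-0.12, adjusted p = 0.0468), and that against EV auxin with only the compared libraries fitted (adjusted p = 0.00772).

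Smc3 (chr19:53600398-53645833, plus strand), an ATPase arm of the ring, was at 442, 511 and 509 CPM in EV untreated, 478 and 457 in EV auxin, 420.2, 477 and 464 in FL auxin and 448, 423 and 429 in H373R auxin. EV untreated replicate 1 overlapped the H373R libraries and the other EV untreated libraries did not. Smc3 passed in 1 of the 6 comparisons, falling in H373R against EV untreated (log2 fold change -0.17 ± 0.06, adjusted p = 0.0330, edgeR). It was called in 13 of 22 alternatives. With the GC and length trends removed it was -0.01 (adjusted p = 0.908), and it was also lost without EV untreated replicate 2 or 3 or H373R replicate 2 or 3 (adjusted p = 0.0744 to 0.133).

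Smc1a (chrX:152016428-152062694, plus strand), the partner of Smc3, was at 263, 277 and 288 CPM in EV untreated and 271 and 273 in EV auxin. It was at 234, 257 and 259 CPM in FL auxin and 247, 232 and 231 in H373R auxin, so that the 6 libraries with reintroduced CTCF all lay below the 5 EV libraries. How many of all genes separate in this way was not counted. The fall passed in H373R against EV auxin (-0.20 ± 0.06, adjusted p = 0.0218) and against EV untreated (-0.22 ± 0.05, adjusted p = 0.00271). It also passed in FL against EV untreated (-0.14 ± 0.05, adjusted p = 0.0395), and FL against EV auxin gave -0.12 (adjusted p = 0.135). The call in H373R against EV auxin was lost when either EV auxin library, H373R replicate 2 or H373R replicate 3 was left out (adjusted p up to 0.123), and its size was -0.13 with the GC and length trends removed. The call in FL against EV untreated was made in 13 of 22 alternatives, and was lost without any 1 of EV untreated replicates 2 and 3, both EV auxin libraries, FL replicate 1 and H373R replicate 2 (adjusted p = 0.0503 to 0.190). That removal gave -0.08 there (adjusted p = 0.0766) and -0.14 in H373R against EV untreated, still called.

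The 2 STAG subunits, alternative partners of the ring, differed. Stag1 (chr9:100597798-100959375, plus strand) was the 1 gene of the 10 that rose. It was at 137, 169 and 169 CPM in EV untreated, 180.1 and 178 in EV auxin, 179, 194 and 193 in FL auxin and 202, 199.5 and 187 in H373R auxin. Every auxin library lay above every untreated one, and how many of all genes separate in this way was not counted. The window before its RefSeq start (GRCm38.p6, chr9:100643198-100643447, plus strand, no annotated exon, 45650 bases inside the GENCODE gene) is shown beside that of Ctcf as the gene that rose.
Stag1: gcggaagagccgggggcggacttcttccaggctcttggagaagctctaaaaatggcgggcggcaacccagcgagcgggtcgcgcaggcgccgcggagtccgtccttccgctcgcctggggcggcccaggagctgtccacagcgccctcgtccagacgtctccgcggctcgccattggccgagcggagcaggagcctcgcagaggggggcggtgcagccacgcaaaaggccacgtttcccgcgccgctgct
The pattern of G runs was not found in this window on either strand, so nothing is in capitals.

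Stag1 rose in FL against EV untreated (0.25 ± 0.07, adjusted p = 0.00979, edgeR) and in H373R against EV untreated (0.31 ± 0.07, adjusted p = 0.00200). EV auxin against EV untreated gave 0.18 ± 0.08 (adjusted p = 0.123), and H373R against FL gave 0.05 (95% interval -0.09 to 0.20). These sizes depended on EV untreated replicate 1 and on base composition. Without that library the rise was 0.16 in FL and 0.20 in H373R. With the GC and length trends removed it was 0.49 and 0.62, and Stag1 was then called higher in all 6 comparisons, among them EV auxin against EV untreated (0.30, adjusted p = 1.64e-06) and H373R against FL (0.14, adjusted p = 0.00561). On log2(TPM + 1) with limma the FL rise was 0.21 (adjusted p = 0.0581).

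Stag2 (chrX:42149317-42277185, plus strand) was at 129, 168 and 162 CPM in EV untreated, 168 and 159 in EV auxin, 147, 163 and 162 in FL auxin and 154, 152 and 146 in H373R auxin. EV untreated replicate 1 was the lowest of all 11 libraries. No comparison of Stag2 passed, and H373R against EV untreated was -0.02 (95% interval -0.19 to 0.14). With the GC and length trends removed that value was 0.26 and was called higher (adjusted p = 4.86e-07).

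The share of Stag1 in the summed TPM of Stag1 and Stag2 is a ratio within each library. It was 42.8%, 41.3% and 42.3% in EV untreated, 42.9% and 44.0% in EV auxin, 46.1%, 45.6% and 45.5% in FL auxin and 48.0%, 48.0% and 47.3% in H373R auxin. No groups overlapped, though EV untreated replicate 1 (42.8%) lay next to the lower EV auxin library (42.9%). The means were 42.1% ± 0.767, 43.5% ± 0.783, 45.7% ± 0.303 and 47.8% ± 0.371 (SD, n = 3, 2, 3 and 3). An exact two-sided permutation test gave p = 0.1 for each pair of groups with n = 3, and p = 0.2 for each pair that includes EV auxin. These are the smallest p the design allows, and over the 6 comparisons the adjusted value was 0.2 for each. The transcripts of Stag1 and Stag2 differ in GC content (41.3% and 38.9%) and exon length (11781 and 8273 bases), and the part of base composition in this shift was not tested. A ratio shows unequal change and not which gene changed.

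**Figure D3:**
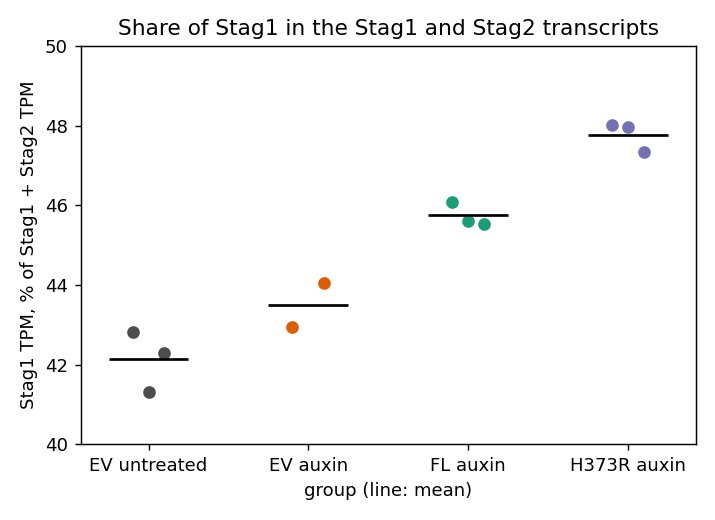
Share of Stag1 in the summed TPM of Stag1 and Stag2 (y axis, percent, drawn from 40 to 50) in each library by group; lines are group means. The libraries run from 41.3% in EV untreated to 48.0% in H373R auxin, with no overlap between groups.

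The loader gene Nipbl was lower in both groups with reintroduced CTCF than in both EV groups. Nipbl (chr15:8290617-8444463, minus strand) was at 156, 191 and 192 CPM in EV untreated and at 169.7 and 162 in EV auxin. It was at 108, 131 and 132 CPM in FL auxin and at 125, 112 and 108 in H373R auxin. All 6 libraries with reintroduced CTCF lay below all 5 EV libraries, while the EV groups overlapped and so did FL and H373R. When FL or H373R was set against a single EV group, 43.4% to 57.0% of all genes did not overlap. The share for the groups pooled was not counted.

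Nipbl fell in FL against EV auxin (-0.42 ± 0.10, adjusted p = 0.00534, edgeR) and in H373R against EV auxin (-0.53 ± 0.10, adjusted p = 0.00142). It also fell against EV untreated, in FL (-0.54, adjusted p = 2.25e-04) and in H373R (-0.64, adjusted p = 2.78e-05). EV auxin against EV untreated gave -0.11 (95% interval -0.32 to 0.09), and H373R against FL gave -0.10 (-0.29 to 0.08). The call in FL against EV auxin was lost without EV auxin replicate 1 (adjusted p = 0.0569), and H373R against EV untreated was -0.39 with the GC and length trends removed. Without EV untreated replicate 1, EV auxin against EV untreated was -0.22 and was called. The primitive endoderm markers were higher in the same 6 libraries, and their part in this difference was not tested.

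Mau2 encodes the partner of NIPBL in the loader and is not among the 10 genes. It was at 51.8, 47.5 and 47.5 CPM in EV untreated, 54.1 and 56.7 in EV auxin and 47.0, 42.7 and 45.8 in FL auxin. It fell in FL against EV auxin (-0.29 ± 0.07, adjusted p = 0.00684). It was at 49.6, 55.2 and 54.6 CPM in H373R auxin and rose in H373R against FL (0.23 ± 0.06, adjusted p = 0.0406), a call that 11 of 22 alternatives lost. Both loader transcripts were thus lower in FL than in EV auxin, and FL and H373R differed by the test for Mau2 and not for Nipbl. The EV untreated libraries of Mau2 lay below the EV auxin ones, the lowest at 47.5 CPM beside the highest FL library at 47.0 CPM.

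Wapl (chr14:34673928-34747983, plus strand), the release factor, was at 330.3, 419 and 409 CPM in EV untreated, 369.9 and 361 in EV auxin, 320.5, 366 and 358 in FL auxin and 330.4, 324 and 307 in H373R auxin. EV untreated replicate 1 lay among the H373R libraries. Wapl fell in H373R against EV untreated (-0.27 ± 0.08, adjusted p = 0.00903), and the other 5 comparisons did not pass. With the GC and length trends removed that difference was -0.09 (adjusted p = 0.0361), and without EV untreated replicate 1 EV auxin against EV untreated was -0.19 and was called.

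Pds5b (chr5:150673739-150810690, plus strand), which holds WAPL on the ring, was at 129, 155 and 150.5 CPM in EV untreated and 155 and 153 in EV auxin. It was at 117, 131 and 131 CPM in FL auxin and 127, 122 and 122 in H373R auxin. Both EV auxin libraries lay above all 6 of these, and EV untreated replicate 1 lay among them. Pds5b fell in FL against EV auxin (-0.29 ± 0.07, adjusted p = 0.00870) and in H373R against EV auxin (-0.32 ± 0.07, adjusted p = 0.00583). Against EV untreated it fell in FL (-0.20, adjusted p = 0.0243) and in H373R (-0.23, adjusted p = 0.0101). With the GC and length trends removed, the falls against EV auxin were -0.19 and -0.13, and those against EV untreated turned to 0.00 and 0.06 with no call. The call in FL was lost without either EV auxin library (adjusted p = 0.0651 and 0.0662), and that in H373R without EV auxin replicate 1 (adjusted p = 0.0580). Against EV untreated, the FL call was lost without EV untreated replicate 2 or 3 or FL replicate 1 (adjusted p = 0.0897 to 0.124), and the H373R call without EV untreated replicate 2 (adjusted p = 0.0570).

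**Figure D4:**
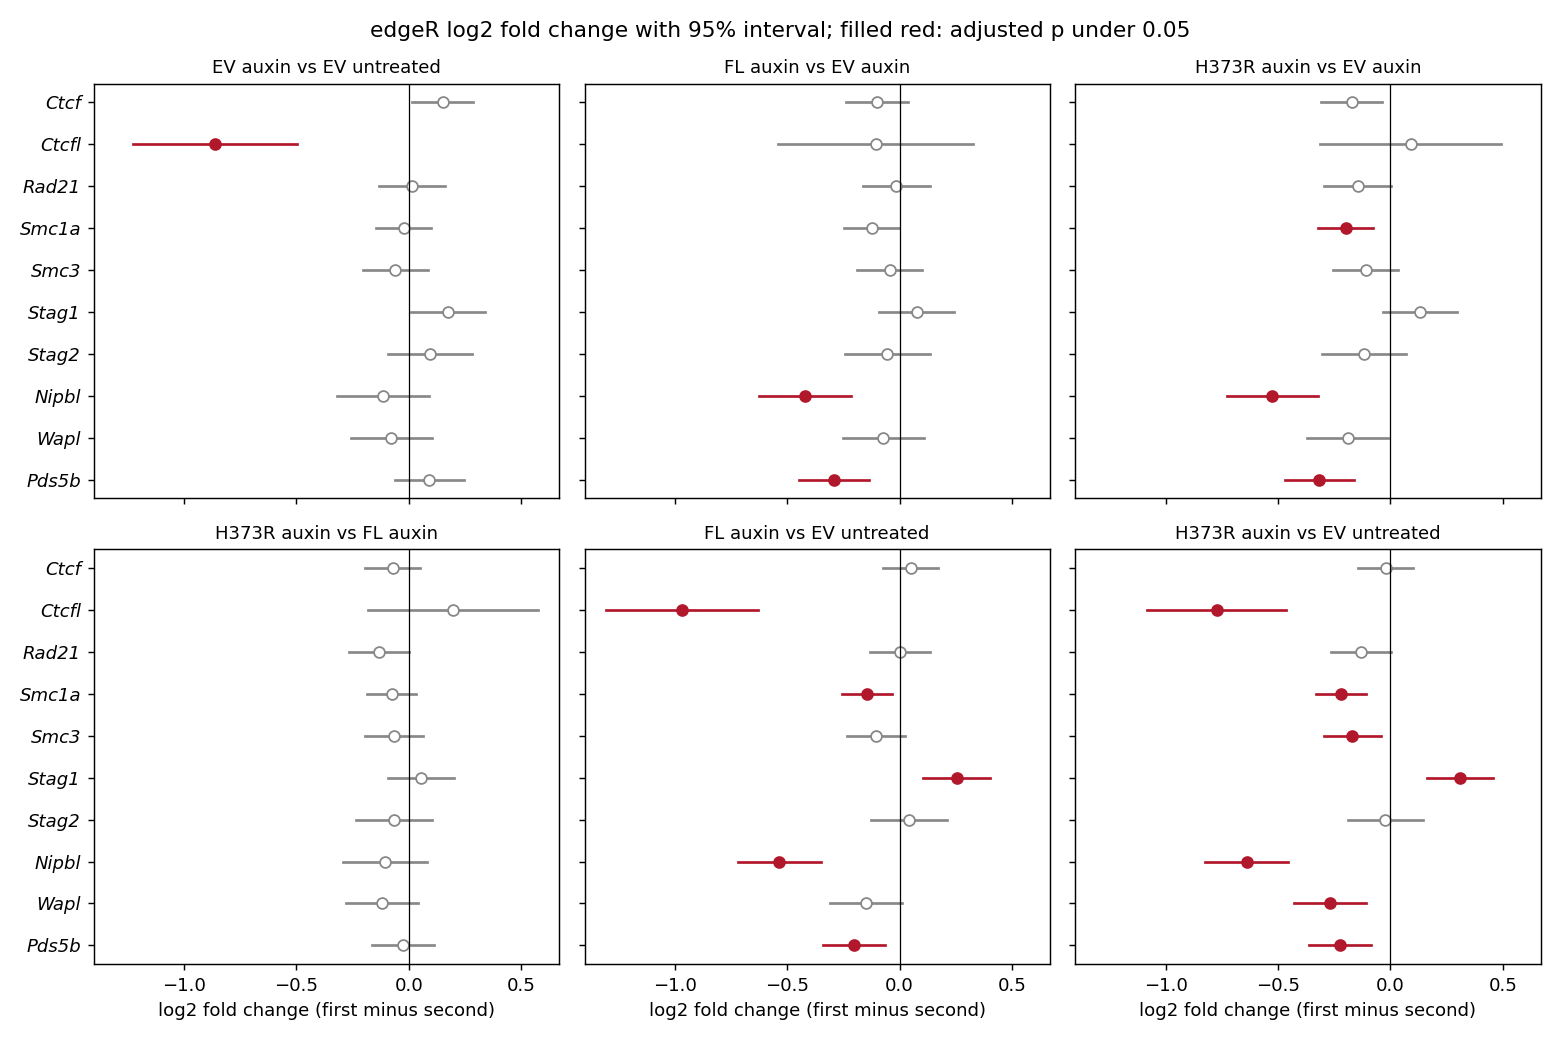
Log2 fold change (x axis) of each of the 10 genes in each of the 6 comparisons, with the 95% interval of the edgeR fit; filled points passed an adjusted p of 0.05. Ctcfl is below 0 in the 3 comparisons with EV untreated, and Nipbl and Pds5b are below 0 wherever FL or H373R is set against an EV group.

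By comparison, the calls among the 10 genes stood near the share over all genes in several cases. FL against EV auxin called 2 of the 10 (Nipbl and Pds5b, both lower), where 24.5% of all genes were called and 13.4% were called lower. H373R against EV auxin called 3 (Smc1a, Nipbl and Pds5b, all lower), where 21.7% of all genes were called and 11.7% were called lower. H373R against FL called none by edgeR, none at an unadjusted p under 0.05 and none by DESeq2, where 5.96% of all genes were called, 3.14% higher and 2.82% lower. FL against EV untreated called 5 (1 higher and 4 lower), where 36.9% of all genes were called, 17.7% higher and 19.2% lower. H373R against EV untreated called 7 (1 higher and 6 lower), where 44.4% of all genes were called, 22.3% higher and 22.1% lower.

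The median log2 fold change of the 10 genes was -0.0027 in EV auxin against EV untreated, beside 0.0087 over all genes. It was -0.09 in FL and -0.16 in H373R against EV auxin, beside -0.01 and 0.00 over all genes. Against EV untreated it was -0.12 in FL and -0.19 in H373R, beside 0.00 over all genes in both. No median was taken with the GC and length trends removed or without EV untreated replicate 1, and the part of either in these medians was not tested. Pairs of groups did not overlap for 9 of the 10 genes in H373R against EV auxin, where 57.0% of all genes did not overlap. In FL against EV auxin 5 genes did not overlap, beside 53.9% of all genes. Against EV untreated 4 genes did not overlap in FL, beside 43.4% of all genes, and 5 in H373R, beside 51.0%. In H373R against FL 1 gene, Rad21, did not overlap, where the share over all genes was 28.8%. How many of all genes separate when groups are pooled was not counted, for these genes or for the further lists.

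**Figure D5:**
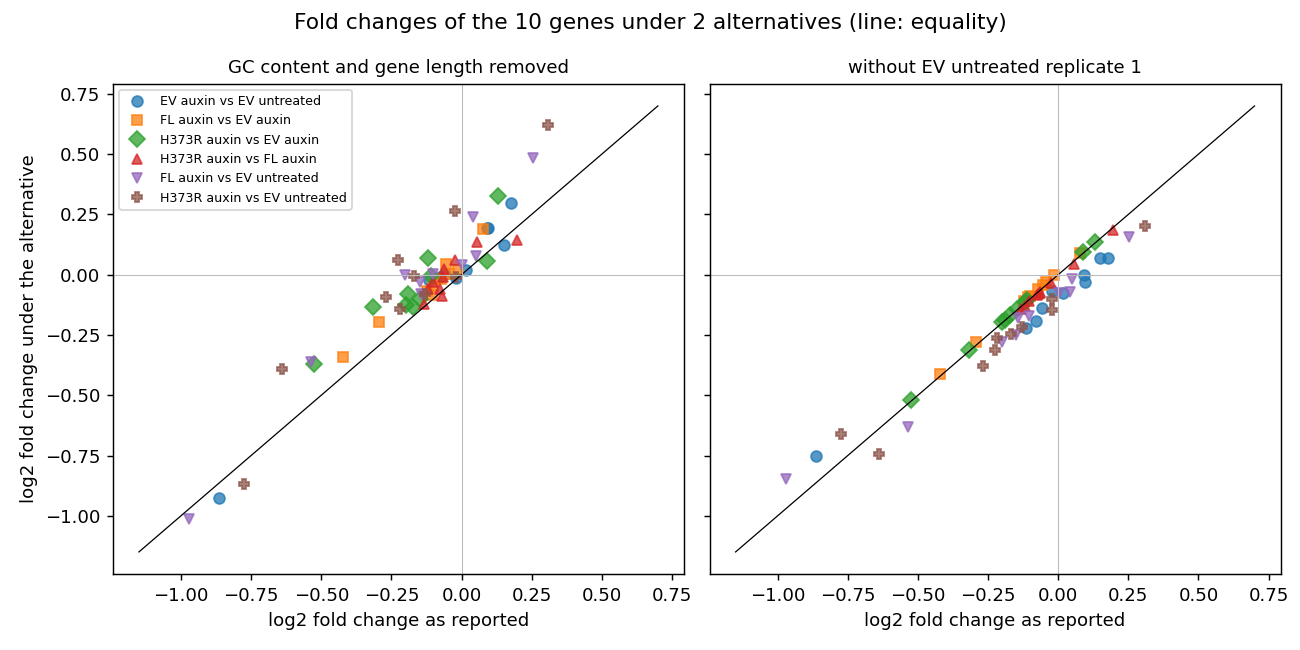
Log2 fold change of each of the 10 genes in the 6 comparisons as fitted on all 11 libraries (x axis) against the value under another setting (y axis): without EV untreated replicate 1, and with trends in GC content and gene length removed; the line marks equal values. Points above the line with the trends removed include Stag1, Stag2 and Pds5b against EV untreated.

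Other genes of the machinery were read from 4 lists with 50 genes in all. Their shares called, set beside those of all genes tested, were 18% and 20.7% in EV auxin against EV untreated, 32% and 24.5% in FL against EV auxin, and 32% and 21.7% in H373R against EV auxin. They were 10% and 5.96% in H373R against FL, 52% and 36.9% in FL against EV untreated, and 64% and 44.4% in H373R against EV untreated. Of 14 further mitotic cohesin factors, 2 were lower after auxin in EV cells: Esco2, an acetyltransferase of SMC3 (-0.29, adjusted p = 0.0291), and Ppp2r5a, a phosphatase subunit (-0.16, adjusted p = 0.0307). Each of these calls was lost in 8 of 22 alternatives, among them without either EV auxin library, and the Esco2 groups overlapped (EV untreated replicate 1 at 149.2 CPM and EV auxin replicate 1 at 149.9 CPM). In FL against EV auxin 3 rose, among them Ppp2r5a (0.27) and the mitotic kinase Plk1 (0.16), and 1, Mau2, fell. In H373R against EV auxin Cdca5, which encodes sororin, the protector of cohesin (0.21), and Ppp2r5a (0.19) rose, and Pds5a, the paralogue of Pds5b, fell (-0.25, adjusted p = 0.0152). Alternatives lost the calls of Plk1 (6 of 22), Ppp2r5a in H373R (2), Pds5a (3, and 2 reversed), Cdca5 (1) and Mau2 in FL (1), each among them without an EV auxin library. In H373R against FL 1 of the 14, Mau2, was called.

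Against EV untreated, 3 of the 14 rose and 3 fell in FL (17.7% and 19.2% of all genes), and 2 rose and 5 fell in H373R (22.3% and 22.1%). Cdca5 rose in both (0.17 and 0.23), as did the securin gene Pttg1 in H373R (0.31) and Plk1 in FL (0.12). Pds5a fell in both (-0.31 and -0.43), Hdac8, which encodes the SMC3 deacetylase, fell in FL (-0.41), and Esco2 fell in H373R (-0.34). Pds5a was at 267, 308 and 306 CPM in EV untreated and at 209 to 246 CPM in the 6 libraries with reintroduced CTCF. On removal of the GC and length trends its differences turned to 0.01 to 0.03 with no call, Esco2 in H373R was -0.09 and Plk1 in FL was 0.01, the last without a call. The Plk1 call was lost in 14 of 22 alternatives.

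The 4 meiotic cohesin subunits were all detected. Stag3, the meiotic STAG, was at 66.9, 70.5 and 72.4 CPM in EV untreated, 71.6 and 73.1 in EV auxin, 83.1, 76.6 and 84.2 in FL auxin and 95.5, 102 and 93.9 in H373R auxin. The FL libraries lay above all EV libraries and the H373R libraries above all FL ones. Stag3 rose in H373R against EV auxin (0.42, adjusted p = 3.02e-04), against FL (0.25, adjusted p = 0.0104) and against EV untreated (0.47, adjusted p = 5.33e-06), and in FL against EV untreated (0.22, adjusted p = 0.00536). The call against FL was lost without FL replicate 2 or H373R replicate 2 (adjusted p = 0.0600 and 0.0657).

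Smc1b, the meiotic form of Smc1a, was at 50.8, 61.8 and 58.6 CPM in EV untreated, 57.5 and 52.7 in EV auxin, 36.5, 44.5 and 42.8 in FL auxin and 53.4, 54.1 and 52.0 in H373R auxin. The FL libraries lay below all others. Smc1b fell in FL against EV auxin (-0.42, adjusted p = 0.00357) and against EV untreated (-0.47, adjusted p = 3.71e-04), and rose in H373R against FL (0.37, adjusted p = 0.0126). The fall against EV auxin was lost without EV auxin replicate 1 (adjusted p = 0.0549), and the rise without FL replicate 1 or H373R replicate 1 or 2 (adjusted p = 0.0547 to 0.0577). Rad21l, at group means of 0.569 to 1.18 CPM, rose in all 3 auxin groups against EV untreated (0.77 to 0.99, adjusted p = 0.0211 to 0.0481), and between 6 and 11 of 21 alternatives lost each call. Rec8 rose in H373R against EV untreated (0.21, adjusted p = 0.0199) and passed in none of the other 5 comparisons; it was named after its values were seen.

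Of 14 condensin and SMC5/6 subunits, 2 fell after auxin in EV cells, and both encode subunits of the SMC5/6 complex: Nsmce4a and Nsmce2 (-0.33, adjusted p = 0.00148). Nsmce4a was at 118, 121 and 120.1 CPM in EV untreated, 46.2 and 47.3 in EV auxin, 83.4, 88.8 and 85.5 in FL auxin and 48.1, 48.3 and 48.9 in H373R auxin. The FL libraries lay between the EV groups, and the H373R libraries lay just above the EV auxin ones, a difference that was not called. Nsmce4a fell after auxin in EV cells (-1.36 ± 0.05, adjusted p = 1.55e-10), a larger difference than that of any of the 10 genes. It rose in FL against EV auxin (0.88, adjusted p = 8.95e-08), fell in H373R against FL (-0.83, adjusted p = 1.44e-07), and stayed below EV untreated in FL (-0.48, adjusted p = 1.59e-06) and H373R (-1.31, adjusted p = 4.41e-11). These calls held under all 22 alternatives.

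Nsmce3, another SMC5/6 subunit, was at 27.3 to 29.8 CPM in the EV libraries, 39.1 to 42.2 in FL auxin and 31.3, 32.3 and 33.0 in H373R auxin. Of the 14, 5 rose and 1 fell in FL against EV auxin (11.1% and 13.4% of all genes), and 2 fell in H373R against FL (2.82%). Nsmce3 rose in FL against EV auxin (0.53) and fell in H373R against FL (-0.33, adjusted p = 0.00302). In H373R against EV auxin 4 of the 14 rose, among them Nsmce1 (0.21) and the condensin gene Ncapd2 (0.21), and Smc2 (-0.39) and Smc6 (-0.38) fell; Smc6 also fell in FL (-0.26). Against EV untreated, 6 fell and 1 rose in FL (19.2% and 17.7% of all genes), and 8 fell and 1 rose in H373R (22.1% and 22.3%). Nsmce3 rose in FL (0.47), Ncapd2 rose in H373R (0.13), and Smc2, a condensin ATPase, fell in both (-0.32 and -0.46). Of 22 alternatives, 8 lost the Nsmce1 call, 5 that of Ncapd2 against EV auxin, 12 that of Ncapd2 against EV untreated (0.08 with the trends removed), and 9 that of Smc6 in FL. Without EV auxin replicate 1 the H373R falls of Smc2 and Smc6 were not called (adjusted p = 0.0713 and 0.0877). With the trends removed, Smc2 was -0.19 in FL and -0.27 in H373R against EV untreated, and -0.27 in H373R against EV auxin. Smc6 was then -0.13 in FL and -0.16 in H373R, both against EV auxin.

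Of 18 architectural or CTCF-associated factors, Patz1, a zinc finger protein, rose after auxin in EV cells (0.36, adjusted p = 0.00172) and 3 fell, among them the demethylase gene Kdm5b (-0.33) and Ldb1, which encodes a looping cofactor (-0.33), a call lost without EV auxin replicate 1 (adjusted p = 0.0834). Bptf, which encodes the largest NURF subunit, was at 299 to 315 CPM in the 5 EV libraries, 190.3, 205 and 214 in FL auxin and 202, 169.8 and 167 in H373R auxin. It fell in FL against EV auxin (-0.57, adjusted p = 6.31e-05) and in H373R against EV auxin (-0.75, adjusted p = 1.85e-05), and against EV untreated in both (-0.60 and -0.78). The zinc finger gene Vezf1 was at 68.6 to 85.2 CPM in the EV libraries, 56.9 to 63.8 in FL and 61.4 to 63.6 in H373R. It fell against EV auxin and EV untreated in FL (-0.37 and -0.39) and in H373R (-0.32 and -0.33). The bromodomain gene Brd2 was at 333 to 367 CPM in the EV libraries, 258 to 290.0 in FL and 258 to 264 in H373R, and fell against the same groups in FL (-0.28 and -0.38) and in H373R (-0.36 and -0.47). H373R and FL did not differ by the test for either gene (adjusted p = 0.720 and 0.347).

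In all, 0 of the 18 rose and 5 fell in FL against EV auxin, and 0 rose and 6 fell in H373R against EV auxin. Against EV untreated, 1 rose and 9 fell in FL, and 2 rose and 11 fell in H373R. Maz, a zinc finger gene, rose in both (0.26 and 0.23), and Patz1 rose in H373R (0.21). Of 22 alternatives, 9 lost the Maz call in FL, 7 lost and 2 reversed that in H373R, and 3 lost that of Patz1. Removing the trends left Maz at 0.00 in FL, turned it to -0.13 in H373R, and left Patz1 in H373R at 0.10.

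Over the 50 genes, 7 fell and 2 rose after auxin in EV cells, 8 rose and 8 fell in FL against EV auxin, and 7 rose and 9 fell in H373R against EV auxin. In H373R against FL 3 rose and 2 fell. Against EV untreated 7 rose and 19 fell in FL, and 8 rose and 24 fell in H373R, with medians of -0.13 and -0.16 on the log2 scale.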

How the data were processed

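The authors deposited raw counts per gene symbol and TPM for 11 libraries, both read as deposited. The submitters' processing notes name featureCounts, Subread 2.0.3, DESeq2 and mm10/GRCm38; the aligner, annotation and strand setting are not given in the sources used here, and per the labels' protocols the library kit was directional. The test was that of edgeR 4.0.16 (R 4.3.3) on counts (TMM, filterByExpr by group, means of 4 groups over all 11 libraries, quasi-likelihood F test, Benjamini-Hochberg adjustment over 16420 genes, threshold 0.05). All libraries entered each fit so that EV auxin, with 2, shared the spread of the others. Standard errors and 95% intervals came from the fit. CPM were TMM-scaled counts, except for the marker sums, which were scaled to total counts alone. The lowest and highest chi-square per degree of freedom between libraries of a group were 1.93 and 15.5, so no pair agreed within sampling noise.

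The 22 alternatives were the replicate number as a block, DESeq2 1.42.0, RLE scaling, fits on the compared libraries alone, no count filter, a minimum of 10 counts per gene and library, trends in GC content and gene length removed within each library (splines with 5 degrees of freedom, GENCODE M21, with and without the block), limma 3.58.1 on log2(TPM + 1) after a filter (TPM 1 or more in 2 libraries), on log2(TPM + 0.1) and unfiltered, and each library left out in turn. Removing a trend also removes any true difference that follows GC content or length. The Stag1 share from counts was added after the data were seen. Promoter windows came from RefSeq (GRCm38.p6), which matched 6 of the 10 genes, and gene positions from GENCODE M21 (GRCm38). The scripts were tested on simulated counts.

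All 10 genes are named. Of the 4 further lists (14, 4, 14 and 18 genes), genes with the 2 largest rises and 2 largest falls past the threshold in each comparison are named. The genes most like Ctcf and Ctcfl are the 5 with the highest Pearson r of log2 CPM, if their mean log2 CPM was 1 or more. The genes and lists were chosen with earlier results of these data known.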

Additional observations from a re-analysis of the deposited data

How the results depend on the processing

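Of 18 calls among the 10 genes, 8 held in all 22 alternatives and 16 kept their sign in all. Same-numbered libraries of different groups are known here only to share a number. Over 15 such pairs the correlation of their deviations was -0.09 to 0.28, and 3 exceeded 0.1. Over 30 pairs with different numbers it was -0.20 to 0.13, and 1 exceeded 0.1. Whether same-numbered libraries were handled together was not tested. With the replicate number as a block 18 of 18 calls were kept and none was added, and 1, 2, 3, 0, 5 and 7 genes of the 10 were called, in the order EV auxin against EV untreated, FL and H373R against EV auxin, H373R against FL, FL and H373R against EV untreated. Of all genes, 3197, 3978, 3532, 942, 6142 and 7436 were called with the block, in the same order. Leaving out 1 library gave 1 to 3, 0 to 2, 1 to 7, 0 to 1, 3 to 7 and 5 to 9 of the 10, and 1569 to 5444, 1879 to 5800, 1502 to 5397, 510 to 2323, 4776 to 7706 and 6012 to 8927 of all genes, against 3392, 4016, 3570, 979, 6052 and 7292 with all libraries. Leaving out either EV auxin library left 1 library in that group. Without EV untreated replicate 1, H373R against EV auxin called 7 of the 10 and 5397 of all genes, against 3 and 3570 with all libraries.

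With the GC and length trends removed, 14 of 18 calls were kept and 9 added: 4 of the 10 were called in EV auxin against EV untreated and 2 in H373R against FL, and of all genes 5122 were called in EV auxin against EV untreated, 6036 in FL against EV auxin and 2330 in H373R against FL. With the block as well these were 4 and 2 of the 10 and 5150, 6041 and 2435 genes, and H373R against EV auxin called 5 of the 10 and 5175 genes. Under both settings the differences from EV untreated turned in H373R for Stag2 (0.26), Pds5b (0.0606 and, with the block, 0.0607) and Maz (-0.13). Pds5a turned to 0.0092 in H373R against EV auxin (0.014 with the block), and to 0.029 in FL and 0.0060 in H373R (0.0059 with the block) against EV untreated. Pds5b in FL against EV untreated turned to 6.3e-05 without the block. With only the libraries compared, 2016 genes were called in EV auxin against EV untreated, 5909 genes and 9 of the 10 in H373R against EV auxin, 1815 genes in H373R against FL, and 4687 genes and 3 of the 10 in FL against EV untreated. Without the count filter 3563 genes and 2 of the 10 were called in EV auxin against EV untreated. Limma without a TPM filter called 2335 genes in H373R against EV auxin, 588 in H373R against FL, and 4949 genes and 3 of the 10 in FL against EV untreated. The cause was not tested. The Stag1 share from counts was 50.9%, 52.3%, 54.6% and 56.6% in EV untreated, EV auxin, FL and H373R. Depth limits Ctcfl (20 to 105 counts) and Rad21l.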
